A study of Mus musculus with 45 samples.

Results

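Pembrolizumab, an antibody against PD-1, given together with tiragolumab, an antibody against TIGIT, was compared with vehicle in the tumours of the experiment coded T2106. The samples were chosen by their labels: the 3 tumours given both antibodies and the 3 vehicle tumours of T2106, 6 of the 45 tumours in the series. All mice were HuGEMM animals on a BALB/c background that carry human PD-1 and human TIGIT as a double knock-in, so the controls share this genotype; their age is not given. The tumours grew from CT26 cells, a mouse colon carcinoma line labelled as undifferentiated, injected under the skin of the right flank. Treatment began on day 8, at a tumour volume of 90 to 100 mm3, by intraperitoneal injection 2 times a week. The vehicle group received saline, and the treated group received 10 mg/kg of pembrolizumab and 10 mg/kg of tiragolumab. RNA came from whole tumour tissue, so it mixes carcinoma cells, immune cells, vessels and whatever tissue adhered to the tumour. The labels call the samples replicates without saying whether each is a separate mouse, so the spread reported here is that between samples.

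PD-1 and TIGIT are inhibitory receptors on T cells, and TIGIT is also found on natural killer (NK) cells. PD-1 binds the ligands PD-L1 and PD-L2, whereas TIGIT binds the poliovirus receptor and nectins and competes for them with the activating receptor CD226. Cytotoxic T cells and NK cells kill by releasing perforin, which opens a path into the target cell, and granzymes, serine proteases that then act inside it.

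Against vehicle, the treated tumours had higher values for granzymes, for calprotectin and other neutrophil genes and for Nos2, and lower values for T cell receptor genes, for the CD8 chains and for Cx3cr1, but no single gene passed the test. Of 15070 genes tested with limma (those at 0.5 FPKM or more in at least 3 libraries), 0 were higher and 0 were lower at an adjusted p under 0.05, 0% in each direction, and the smallest adjusted p was 0.474, for Inmt. At an unadjusted p under 0.05 there were 774 genes (5.14%), of which 304 (2.02%) were higher and 470 (3.12%) were lower. The 3 treated tumours all lay above the 3 vehicle tumours in 1116 genes (7.41%) and all below them in 2475 (16.4%), and these shares are the background for every count of members below. With a difference of at least 1 on the log2 scale added, 68 genes lay apart upward and 98 downward. Differences are treated minus vehicle on the log2(FPKM + 0.5) scale, which understates the change of low genes; their median over all genes tested was -0.06. A difference in a bulk sample cannot tell fewer cells of a type from less RNA per cell.

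Vehicle replicate 2 stood apart from the other 5 libraries. Its log2 values correlated with theirs at r = 0.962 to 0.97 across genes, whereas the others correlated with each other at 0.983 to 0.992. The 6 libraries held 13043 to 13396 genes at or above 0.5 FPKM; the files used here give no counts, so the read depth is unknown. Fat, red cell and mitochondrial genes were all highest there. The 13 adipocyte genes summed to 467 FPKM in vehicle replicate 2, to 82.3 and 147 FPKM in vehicle replicates 1 and 3, and to 89.1, 100.4 and 95.8 FPKM in the treated tumours. Cfd, an adipocyte protease, was at 106 FPKM in vehicle replicate 2, against 0.898 and 6.52 FPKM in the other vehicle tumours and 0.346 to 0.45 FPKM in the treated tumours. The mammary gland list was also highest there, with 61.3 FPKM in vehicle replicate 2 and 9.31 to 39.9 FPKM in the other 5 tumours. Erythrocyte genes summed to 776 FPKM in vehicle replicate 2 and to 155 to 336 FPKM in the other 5 tumours, and mitochondrial transcripts to 74982 FPKM against 31894 to 44223 FPKM. Skin genes summed to 2.9 to 5.9 FPKM and muscle genes to 3.07 to 6.17 FPKM over the 6 tumours. With the mean log2 value of the fat list as a covariate, 0 genes were called and 1470 had an unadjusted p under 0.05, against 774 without it; the part of the red cell, mitochondrial, mammary, skin and muscle genes was not tested. Without it, 1516 genes (10.1%) lay above the remaining 2 vehicle tumours and 3601 (23.9%) below. Of the carcinoma label's epithelial markers, Krt18, a keratin, was at 8.52 to 14.5 FPKM, while Epcam and Cdh1, the adhesion proteins of epithelia, stayed under 1 FPKM in all 6 tumours.

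The granzyme genes with the highest treated values sit in 1 cluster on chromosome 14 of GRCm38, all on the minus strand. Gzmb (ENSMUSG00000015437) spans 56258838 to 56262260 and Gzmc (ENSMUSG00000079186) 56231441 to 56234656. Gzmf (ENSMUSG00000015441) spans 56205263 to 56211417, Gzmg (ENSMUSG00000040284) 56156582 to 56159579, Gzmd (ENSMUSG00000059256) 56129556 to 56132608 and Gzme (ENSMUSG00000022156) 56117626 to 56120625. Because 6 neighbouring genes had higher values together, the 150 bases before the RefSeq start of 4 of them (GRCm38.p6) are shown 5′ to 3′ on the gene's strand, with motif matches in capitals.
Gzmb, chr14:56262335-56262484, minus strand: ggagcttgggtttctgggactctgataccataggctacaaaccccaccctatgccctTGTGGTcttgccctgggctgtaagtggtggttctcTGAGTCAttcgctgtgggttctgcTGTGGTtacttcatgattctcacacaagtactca
Gzmc, chr14:56234658-56234807, minus strand: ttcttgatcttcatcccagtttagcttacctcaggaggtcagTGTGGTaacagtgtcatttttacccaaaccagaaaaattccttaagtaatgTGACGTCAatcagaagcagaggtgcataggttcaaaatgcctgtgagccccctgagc
Gzmd, chr14:56132594-56132743, minus strand: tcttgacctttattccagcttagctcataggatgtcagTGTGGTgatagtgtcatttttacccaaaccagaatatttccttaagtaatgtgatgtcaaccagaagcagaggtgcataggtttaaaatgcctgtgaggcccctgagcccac
Gzmg, chr14:56159580-56159729, minus strand: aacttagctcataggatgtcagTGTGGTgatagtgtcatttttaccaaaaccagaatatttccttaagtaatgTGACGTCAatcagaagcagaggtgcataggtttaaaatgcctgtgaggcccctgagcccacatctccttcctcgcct

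Motifs were searched as letters on both strands. TGTGGT, the core that RUNX factors bind, occurred in all 6 windows, against 8.4% of 32851 RefSeq promoters over the same 150 bases. TGACGT, the core of the cyclic AMP response element, occurred in Gzmc, Gzmf and Gzmg (5.15% of promoters); each holds it on both strands, overlapping in the palindrome printed in capitals. TGANTCA, the AP-1 letters, occurred in the Gzmb window alone of the 6 (4.24% of promoters). TATAAA (7.57% of promoters) and the STAT letters TTCNNNGAA (4.09%) had no match in any of the 6 windows. Aligned windows of Gzmc, Gzmd, Gzme, Gzmf and Gzmg were 87.2% to 97% identical to each other, over 125 to 149 bases. Matches that these windows share are therefore not independent observations, and the counts over windows were not tested against the promoter shares. A match is a description of letters, not of binding.

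The products of these genes are cytotoxic proteases, and their levels were as follows. Gzmc was at 240, 162 and 167 FPKM in treated replicates 1, 2 and 3 and at 78.1, 25.1 and 34.5 FPKM in vehicle replicates 1, 2 and 3. Gzmf was at 640, 282 and 562 FPKM against 188, 24.1 and 46.9 FPKM. Gzmg was at 539, 249 and 506 FPKM against 196, 12.5 and 24.8 FPKM. In all 3 genes the groups did not overlap, vehicle replicate 1 was the highest control and vehicle replicate 2 the lowest. The difference was 2.18 ± 0.52 (SE) for Gzmc, with a 95% interval of 1.06 to 3.3. It was 2.95 ± 0.71 for Gzmf, with an interval of 1.44 to 4.47, and 3.35 ± 0.84 for Gzmg, with an interval of 1.55 to 5.14. The adjusted p was 0.858 in limma for each.

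Gzmd was at 440, 203 and 378 FPKM with treatment and at 159, 18.2 and 28.5 FPKM with vehicle, a difference of 2.87 ± 0.76. Gzme was at 145, 62.1 and 126 FPKM against 57, 6.13 and 9.86 FPKM, a difference of 2.73 ± 0.77. Neither gene's groups overlapped, though the lowest treated tumour, replicate 2, was not far above vehicle replicate 1 in either. Gzmb, the granzyme most used as a marker of cytotoxic cells, was at 128, 95.3 and 105 FPKM against 64.8, 32.8 and 52.7 FPKM, and its groups lay apart. Its mean was 109 ± 16.7 (SD, n = 3) with treatment and 50.1 ± 16.1 with vehicle, and the difference was 1.16 ± 0.38. Prf1, perforin, was at 57.5, 30.6 and 48.2 FPKM against 26, 9.01 and 18.7 FPKM, apart by a difference of 1.4 ± 0.49. Without vehicle replicate 2 the differences were 1.83 for Gzmc, 2.3 for Gzmf, 2.54 for Gzmg, 2.25 for Gzmd, 2.1 for Gzme, 0.89 for Gzmb and 0.98 for Prf1.

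Granzyme genes outside this group were mixed. Gzma, encoded on chromosome 13, was at 99.5, 72.7 and 52.6 FPKM with treatment and at 37.7, 30.5 and 67.3 FPKM with vehicle, and the groups overlapped. Gzmk, the granzyme of memory-type CD8 T cells, was under 1 FPKM in all 6 tumours, and the cluster member Gzmn did not exceed 0.531 FPKM. Ctsg, cathepsin G of the same chromosome 14 family, was at 10, 3.2 and 9.18 FPKM against 2.91, 0.491 and 0.888 FPKM, without overlap. Serpinb9b, of a serpin family that inhibits granzyme B, was at 16.9, 13.7 and 18.2 FPKM against 8.22, 4.99 and 6.44 FPKM, again without overlap. The cluster genes are close copies: the Gzmd and Gzme transcripts are 93.4% identical and those of Gzme and Gzmg 90%. Of windows of 50 bases, 21.5% in Gzmd, 19.1% in Gzme, 15.2% in Gzmg, 7.36% in Gzmf and 4.14% in Gzmc also occur in another of the 6, while no window of 150 bases does. No label or note used here says how reads were shared among copies, so the split between these genes is uncertain; Gzmb shares no such window.

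**Figure D1:**
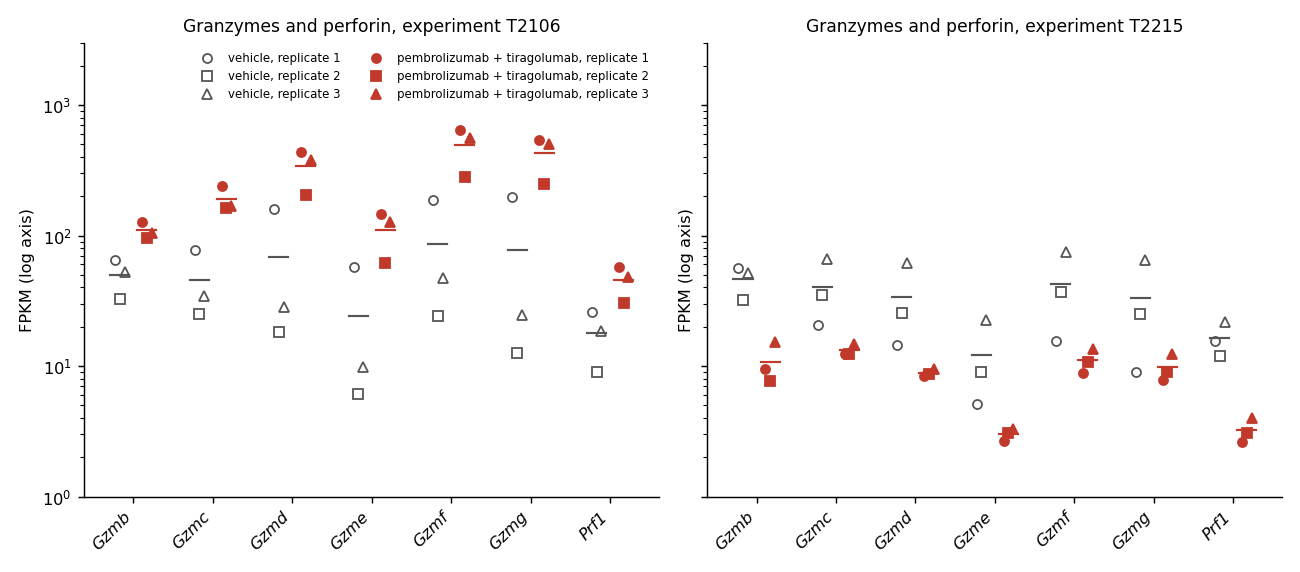
FPKM of 6 granzyme genes and perforin on a log axis in the vehicle tumours (open grey) and the tumours given pembrolizumab and tiragolumab (filled red) of T2106 (left) and T2215 (right); marker shapes are replicates and bars are means of 3. In T2106 all treated values lie above all vehicle values of the same gene, and in T2215 all treated values of Gzmb, Gzmc, Gzmd, Gzme, Gzmf and Prf1 lie below.

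The receptors targeted by the antibodies differed in level. Pdcd1, the mouse gene for PD-1 (ENSMUSG00000026285; chromosome 1, 94038305 to 94052553), was at 0.693, 0.224 and 0.182 FPKM with treatment and at 1.39, 0.684 and 2.05 FPKM with vehicle. Treated replicate 1 overlapped vehicle replicate 2, and the difference of -1.09 ± 0.65 was not called (95% interval -2.49 to 0.3, adjusted p = 0.967 in limma). Tigit (ENSMUSG00000071552; chromosome 16, 43648867 to 43664146) was at 14, 15.4 and 17.3 FPKM against 17.9, 13.6 and 17.3 FPKM, with a difference of -0.05 and a 95% interval of -1.12 to 1.02. Its groups overlapped completely. The table holds mouse genes, so how reads of the human knock-in sequences enter these 2 values is not known. Tigit did not follow the T cell gene Cd3e across groups. In the T2106 tumours given serplulimab and HLX53, another antibody pair, Tigit was at 2.89, 11.9 and 3.81 FPKM. Cd3e was at 10.8, 4.6 and 9.5 FPKM there. Which cells the Tigit values come from was not tested.

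Among the ligands, Cd274, which encodes PD-L1 (ENSMUSG00000016496; chromosome 19, 29367455 to 29388095), was at 28.3, 40.4 and 31.8 FPKM with treatment and at 15.7, 7.46 and 22.2 FPKM with vehicle. All treated tumours were above all vehicle tumours, by 1.24 ± 0.47 (0.81 without vehicle replicate 2; adjusted p = 0.92 in limma). Pdcd1lg2, which encodes PD-L2, was at 3.67, 1.25 and 2.97 FPKM against 1.06, 1.16 and 1.43 FPKM and overlapped. Pvr, the poliovirus receptor and main ligand of TIGIT, was at 65.9, 92.9 and 86.6 FPKM against 67.8, 48 and 61.1 FPKM and also overlapped. The nectin genes Pvrl2 and Pvrl4 lay slightly below vehicle without overlap, by -0.2 and -0.39, and Pvrl1 and Pvrl3 overlapped. Cd226, the activating competitor of TIGIT, lay below vehicle at 0.249 to 0.451 FPKM against 0.485 to 0.752 FPKM, and Cd96, another receptor for the same ligand, overlapped at 0.895 to 1.65 against 0.915 to 1.06 FPKM.

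T cell identity genes had lower values with treatment. Of 21 such genes, 15 had all treated tumours below all vehicle tumours, none the reverse and none was called, with a median difference of -0.73 (-0.87 without vehicle replicate 2, when 16 lay below). Cd3e, a signalling chain of the T cell receptor complex (ENSMUSG00000032093; chromosome 9, 44998740 to 45009627), was at 0.971, 0.511 and 0.725 FPKM with treatment and at 3.74, 3.55 and 4.06 FPKM with vehicle. These groups were far apart for their spread, with means of 0.736 ± 0.23 and 3.78 ± 0.261 (SD, n = 3). The difference was -1.81 ± 0.71, with a 95% interval of -3.33 to -0.29 and an adjusted p of 0.923 in limma, whose standard error is shared with the other 12 tumours of T2106.

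Cd3g, another chain of the complex, was at 2.74, 1.44 and 3.05 FPKM against 12.7, 7.59 and 12.6 FPKM. Trac, the constant region of the receptor's alpha chain, was at 2.87, 1.13 and 1.16 FPKM against 8.28, 8.47 and 7.57 FPKM. Both lay apart, by -1.99 and -2.04. Cd2, an adhesion receptor, was at 1.46, 1.39 and 1.11 FPKM against 2.87, 4.12 and 3.5 FPKM. Cd5, which dampens receptor signalling, was at 0.209, 0.204 and 0.196 FPKM against 0.959, 0.652 and 0.733 FPKM. The others below vehicle included Cd3d, Cd247, Cd4, Cd6, Lck, Lat, Themis, Ubash3a and Trbc2, most of them receptor chains or the kinases and adaptors downstream. Of the 6 that overlapped, Icos, a costimulatory receptor, and Trbc1, a beta chain constant region, had higher means with treatment, by 0.07 and 0.05, and turned lower without vehicle replicate 2, by -0.19 and -0.17.

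The CD8 chains went with the T cell genes, not with the granzymes. Cd8a (ENSMUSG00000053977; chromosome 6, 71373427 to 71379173) was at 1.36, 0.517 and 1.12 FPKM with treatment and at 5.84, 3 and 6.08 FPKM with vehicle. Cd8b1 was at 0.804, 0.51 and 1.01 FPKM against 3.27, 3.44 and 4.25 FPKM. Neither gene's groups overlapped; the differences were -1.86 ± 0.77 and -1.72 ± 0.74. In the list of 20 CD8 and effector genes, 9 lay above vehicle (Gzmb, Gzmc, Gzmd, Gzme, Gzmf, Prf1, the granule inhibitor Cst7, the transcription factor Eomes and the cytokine Tnf). Another 5 lay below: Cd8a, Cd8b1, the chemokine Ccl5, the death ligand Fasl and the transcription factor Tbx21. The median of the list was 0.42, or 0.23 without vehicle replicate 2, and none was called. Ccl5 was at 18.6, 13.3 and 15.8 FPKM against 41.1, 36.9 and 35 FPKM, and Tbx21 at 0.789, 0.316 and 0.403 FPKM against 1.21, 0.928 and 1.34 FPKM.

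A fit chosen after seeing the data, restricted to the 6 libraries and giving each a weight by its scatter, called 51 genes at an adjusted p under 0.05, 19 higher (0.126%) and 32 lower (0.212%). It gave vehicle replicate 2 a weight of 0.191 and the other 5 libraries weights of 0.812 to 1.65. Among the lower genes were 7 of the 21 T cell identity genes (Cd3e, Cd3g, Cd2, Cd5, Cd6, Trac and Ubash3a), with Cd8a, Cd8b1, Cd27, Ccl5, Tox and Inmt. Among the higher genes were Klrg1, S100a8, S100a9, Retnlg, Nos2, Tnfrsf8 and Prl2c2. In this weighted limma fit the adjusted p was 0.0361 for Cd3e and Klrg1. It was 0.0499 for Cd8a and every other gene of the 51, just under the threshold of 0.05. No granzyme was among the 51, and the smallest adjusted p of the cluster genes named was 0.0757, for Gzmb. With all 6 weighted equally in a fit of the same 6 libraries, 0 genes were called.

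**Figure D2:**
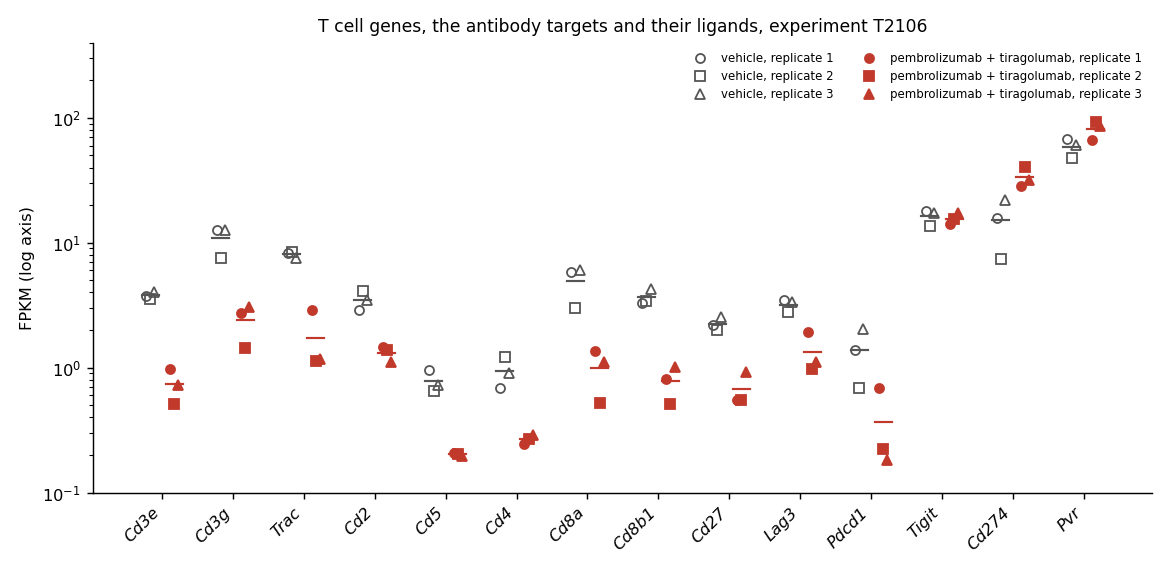
FPKM on a log axis of T cell genes, the antibody targets and their ligands in the 3 vehicle (open grey) and 3 treated (filled red) tumours of T2106; marker shapes are replicates and bars are means. Treated values of Cd3e, Cd3g, Trac, Cd2, Cd5, Cd4, Cd8a, Cd8b1, Cd27 and Lag3 lie below all vehicle values, Tigit and Pvr overlap, and Cd274 lies above.

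Receptors of exhausted and regulatory T cells were mixed. Of 12 checkpoint genes, 4 lay below vehicle (Lag3, Cd226, Btla and Tox) and 2 above (Havcr2 and Cd244), with a median of -0.11, or -0.18 without vehicle replicate 2, and none called. Lag3, an inhibitory receptor for MHC class II, was at 1.93, 0.976 and 1.12 FPKM against 3.45, 2.77 and 3.33 FPKM. Havcr2, which encodes TIM-3 and is also expressed by myeloid cells, was at 11.4, 9.2 and 10.7 FPKM against 8.25, 3.11 and 7.08 FPKM. Tox, a transcription factor of exhausted T cells, was at 0.205, 0.0292 and 0.014 FPKM against 0.587, 0.43 and 0.72 FPKM.

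Among 10 regulatory T cell genes, 5 lay below (Foxp3, Ikzf4, Tnfrsf18, Tnfrsf4 and Ccr8) and 2 above (Il2ra and Tnfrsf9), with a median of -0.4, or -0.34 without vehicle replicate 2. Foxp3, the defining transcription factor of regulatory T cells, was at 0.181, 0.126 and 0.199 FPKM against 0.413, 0.575 and 0.382 FPKM, and Tnfrsf4, which encodes OX40, at 1.07, 0.557 and 0.755 FPKM against 1.61, 2.07 and 2.25 FPKM. Both were low and lay apart. Tnfrsf9, which encodes the costimulator 4-1BB, was at 96.8, 101 and 115 FPKM against 81.2, 22.9 and 52.6 FPKM, a level far above that of any T cell receptor gene in these tumours. Il2ra, the interleukin 2 receptor alpha chain, was at 3.03, 2.32 and 3.17 FPKM against 1.68, 0.699 and 0.824 FPKM. Cd27, a costimulatory receptor of naive and memory T cells, was at 0.548, 0.552 and 0.925 FPKM against 2.18, 1.98 and 2.55 FPKM.

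NK cell genes were mixed. Of 9 tested, 2 lay above vehicle and none below, with a median of 0.03; without vehicle replicate 2 the median was 0.04 and 2 lay above and 3 below. Klrg1, an inhibitory receptor of mature NK cells and effector T cells (ENSMUSG00000030114; chromosome 6, 122270596 to 122282882), was at 8.4, 7.23 and 8.12 FPKM against 2.63, 1.81 and 2.34 FPKM, which lay apart by 1.62 ± 0.44. Cd244, which encodes the receptor 2B4, was at 0.677, 0.608 and 0.72 FPKM against 0.414, 0.248 and 0.407 FPKM. Sh2d1b2, an adaptor of the same receptor family, was at 3.98, 2.46 and 4.19 FPKM against 1.19, 0.314 and 0.446 FPKM and lay apart by 1.86. Ncr1, which defines NK cells, overlapped at 6.11, 4.64 and 3.4 FPKM against 2.63, 2.76 and 5.48 FPKM, and so did Xcl1, a chemokine of NK cells and CD8 T cells, at 1.33 to 2.92 against 2 to 6.44 FPKM. Of 10 B and plasma cell genes tested, 4 had higher and 6 lower values with treatment. In this list 2 lay below vehicle and none above, with a median of -0.006, or 0.04 without vehicle replicate 2. Its member of smallest p, Ighm, the heavy chain of IgM, lay below vehicle at 4.12, 6.13 and 1.88 FPKM against 8.04, 22.3 and 17 FPKM. Tnfrsf8, which encodes CD30 of activated lymphocytes, was at 0.925, 1.14 and 1.16 FPKM against 0.312, 0.246 and 0.247 FPKM.

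Genes induced by interferon gamma had higher or overlapping values. Of 25 such genes, 23 had a higher mean difference with treatment, 7 lay above all vehicle tumours and none below, with a median of 0.53, or 0.28 without vehicle replicate 2; none was called. Ifng itself was at 2.61, 2.51 and 2.09 FPKM against 1.84, 0.917 and 2.16 FPKM and overlapped. Igtp and Irgm1, immunity-related GTPases, were at 124, 151 and 114 FPKM against 72.3, 51.3 and 103 FPKM, and at 138, 152 and 121 FPKM against 85.7, 59.5 and 115 FPKM. Irf1, a transcription factor of the response, was at 121, 146 and 106 FPKM against 74.5, 65.4 and 104 FPKM. In these 3 genes the gap between the lowest treated and the highest vehicle tumour was narrow. Gbp5, a guanylate-binding protein, was at 35.4, 40.7 and 33.1 FPKM against 18.9, 15 and 31.2 FPKM; Gbp3 and Socs1 also lay above.

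Cxcl9, a chemokine that attracts T cells and is induced by interferon gamma, went the other way in its mean, at 45.2, 59.9 and 24.6 FPKM against 37.9, 102 and 70.9 FPKM, and overlapped. Among 22 type I interferon genes 2 lay above, and among 16 MHC class I genes none lay apart, with medians of 0.27 and 0.19. Without vehicle replicate 2 these medians were 0.08 and 0.06. Bst2, the antiviral protein tetherin, was the interferon gene of highest level named here, at 802, 651 and 654 FPKM against 565, 399.8 and 539 FPKM. H2-K1, a classical MHC class I gene, overlapped at 26.6 to 32.2 against 30 to 49.5 FPKM, and Erap1, which trims peptides for MHC class I, at 32.3 to 41.2 against 21.8 to 34.1 FPKM. MHC class II genes, which mark antigen-presenting cells, had a median of -0.45, or -0.39 without that tumour. H2-Ab1 depended on 1 tumour, at 9.91, 7.99 and 6.3 FPKM with treatment and at 5.47, 74.5 and 14.3 FPKM with vehicle; its difference of -1.15 was -0.16 without vehicle replicate 2. H2-Aa overlapped at 9.81 to 19 against 11.2 to 26.1 FPKM, as did H2-DMa, a class II peptide loader, at 10.6 to 18.8 against 17.8 to 42.5 FPKM. Of 15 genes tested in a list of chemokines for T cells, 1 lay above vehicle and 4 below. The median was -0.16, or -0.14 without vehicle replicate 2. The 1 above was Ccl2, a monocyte chemokine, at 445, 481 and 386 FPKM against 362, 179 and 310 FPKM.

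**Figure D3:**
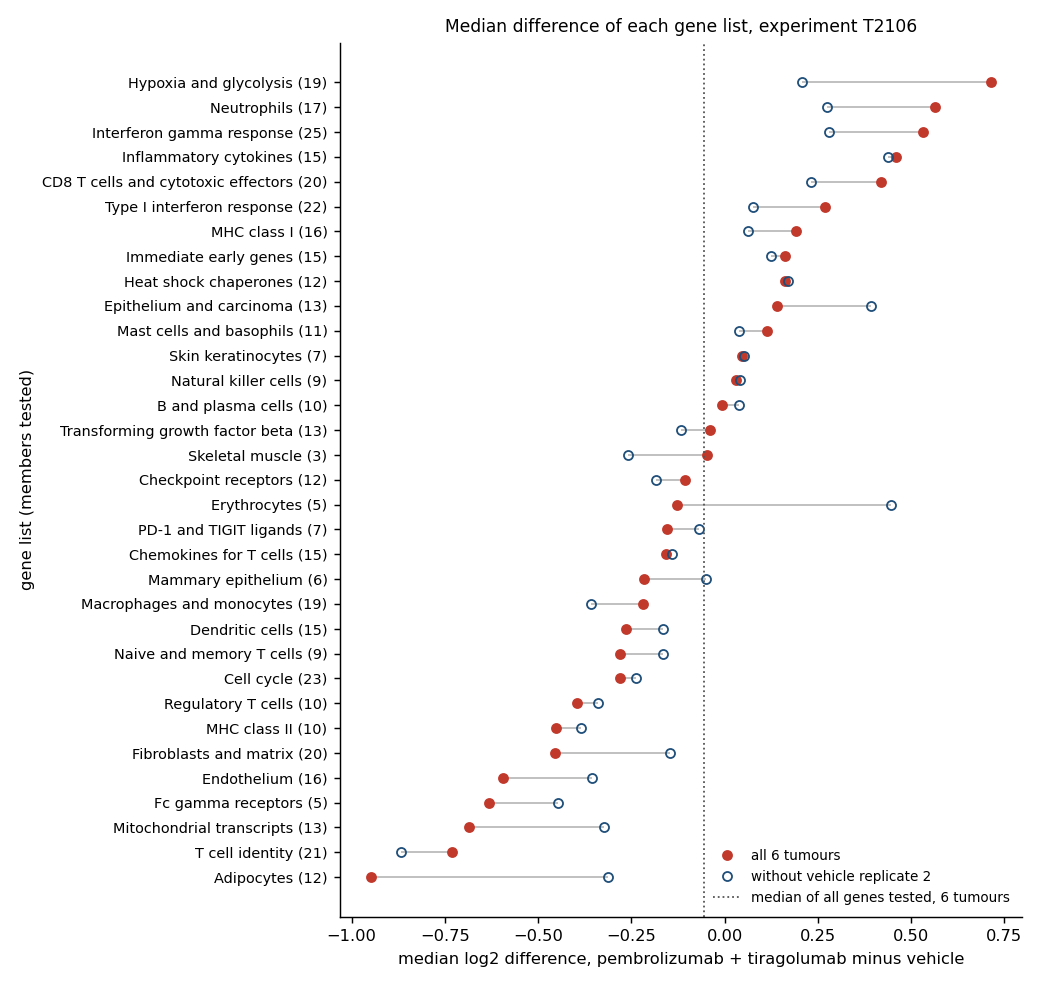
Median log2 difference (treated minus vehicle, log2(FPKM + 0.5) scale) of each of 33 gene lists in T2106, from all 6 tumours (filled red) and without vehicle replicate 2 (open blue); the dotted line is the median of all genes tested and the numbers in brackets are the members tested. The T cell list stays low in both, while the adipocyte, hypoxia and mitochondrial lists move toward the line without that tumour.

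Neutrophil genes had higher values with treatment. Of 17, 8 lay above vehicle and none below, with a median of 0.56, or 0.27 without vehicle replicate 2. S100a8 (ENSMUSG00000056054; chromosome 3, 90668978 to 90670035), which with S100a9 forms the neutrophil protein calprotectin, was at 35.8, 35.9 and 40.3 FPKM against 8.81, 3.04 and 10.9 FPKM. S100a9 was at 64.6, 77.2 and 82.5 FPKM against 23.2, 5.46 and 17.1 FPKM. Retnlg, a secreted neutrophil protein, was at 4.04, 5.24 and 4.73 FPKM against 0.643, 3.03 and 0.467 FPKM. All 3 lay apart, by 2.39 ± 0.82, 2.47 ± 0.84 and 1.71 ± 0.63, and the adjusted p was 0.871 to 0.894 in limma. The defining neutrophil genes were near the floor: Ly6g did not exceed 0.126 FPKM and Cxcr2 0.722 FPKM in these tumours, though both lay above vehicle, as did Il1b, Mmp8 and Ngp. Lcn2, a siderophore-binding protein, overlapped at 37 to 65 against 13 to 40.4 FPKM.

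Of 19 macrophage and monocyte genes, 2 lay above vehicle and 5 below, with a median of -0.22. Without vehicle replicate 2 the median was -0.36 and 8 lay below. Nos2, the inducible nitric oxide synthase of activated macrophages (ENSMUSG00000020826; chromosome 11, 78920787 to 78960254), was at 18.8, 15.5 and 24.6 FPKM against 5.09, 1.84 and 5.33 FPKM and lay apart by 2.22 ± 0.57. Arg1, the arginase that competes with it for arginine, overlapped at 184, 130 and 257 FPKM against 148, 10.6 and 94.4 FPKM. Its difference of 1.77 was 0.63 without vehicle replicate 2. Cd14 lay above vehicle at 97.9, 87.1 and 91.3 FPKM against 77.7, 48.4 and 79.6 FPKM, and Adgre1, which encodes F4/80, overlapped at 12 to 18.5 against 15.1 to 26.1 FPKM. Below vehicle lay Csf1r, the growth factor receptor of macrophages, with Mrc1, C1qb, C1qc and Apoe, genes of tissue-type macrophages. Apoe was at 243, 163 and 108 FPKM against 256, 958 and 754 FPKM. Csf1r was at 26.3, 26 and 15.6 FPKM against 31.6, 41.2 and 47.4 FPKM.

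Cx3cr1 and Siglece were the myeloid genes among the 12 downward genes that the naming rule chose. That rule ranked by p only genes whose groups lay apart by a difference of at least 1. Cx3cr1, the fractalkine receptor of monocytes, macrophages and some lymphocytes (ENSMUSG00000052336; chromosome 9, 119901616 to 120069879), was at 1.15, 1.47 and 0.39 FPKM against 4.67, 9.25 and 8.93 FPKM. Siglece, an inhibitory sialic acid receptor of myeloid cells, was at 0.61, 0.944 and 0.446 FPKM against 1.91, 4.36 and 3.52 FPKM. Both lay apart, by -2.46 ± 0.63 and -1.65 ± 0.54, and kept values of -2.29 and -1.44 without vehicle replicate 2. Fc gamma receptors are those through which antibodies engage myeloid and NK cells. In their list 4 of 5 genes lay below vehicle, with a median of -0.63, or -0.45 without vehicle replicate 2. The 4 were Fcgr2b, Fcgr3, Fcgr4 and Fcer1g, the last of which encodes a signalling chain and not a receptor that binds antibody. Fcgr2b, the inhibitory receptor, was at 81.7, 87.9 and 75.6 FPKM against 107, 154 and 164 FPKM. Fcgr3 was at 41.5, 41 and 35 FPKM against 47.3, 78.6 and 60.3 FPKM, and Fcgr4 at 39.4, 35.5 and 21.2 FPKM against 46.9, 47.5 and 68.3 FPKM; both are activating receptors.

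Inflammatory cytokine genes lay above vehicle in 8 of 15 cases and below in 1, with a median of 0.46, or 0.44 without vehicle replicate 2. Il1rn, the interleukin 1 receptor antagonist, was at 52.5, 35.8 and 57.2 FPKM against 33.8, 5.25 and 22.7 FPKM. Ptgs2, the prostaglandin synthase COX-2, was at 59.5, 83 and 78.2 FPKM against 48.8, 19.7 and 37.6 FPKM. The groups of both lay apart, as did those of Il1a, Il1b, Il6, Tnf, Lif and Osm. Il1a was at 2.17, 1.74 and 2.65 FPKM against 0.785, 0.544 and 1.68 FPKM, and Osm, oncostatin M, at 3.84, 4.77 and 4.67 FPKM against 3.1, 0.93 and 2.46 FPKM. In the transforming growth factor beta list, 2 of 13 genes lay above vehicle and 3 below. Its median was -0.04, near that of all genes tested, or -0.12 without vehicle replicate 2. Tgfb1, the main ligand, lay below vehicle at 43.4, 39.4 and 35.1 FPKM against 49.1, 65.3 and 55.2 FPKM. Inhba, an activin subunit, lay above at 16.6, 19.5 and 22.5 FPKM against 14.6, 9.09 and 13.2 FPKM.

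**Figure D4:**
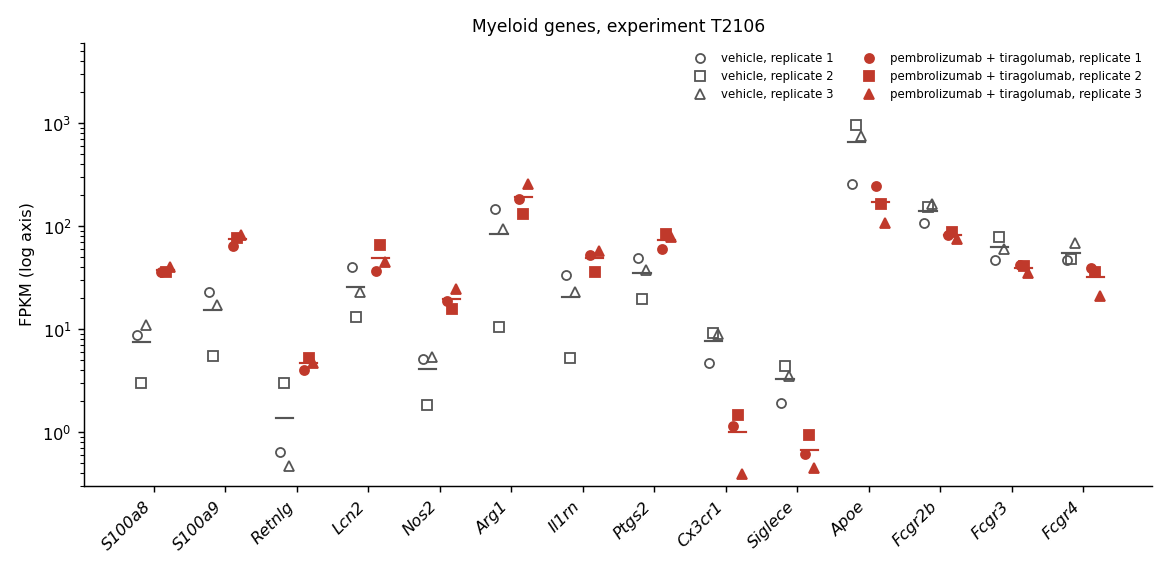
FPKM on a log axis of neutrophil, macrophage, cytokine and Fc receptor genes in the 3 vehicle (open grey) and 3 treated (filled red) tumours of T2106; marker shapes are replicates and bars are means. Treated values of S100a8, S100a9, Retnlg and Nos2 lie above all vehicle values, and those of Cx3cr1 and Siglece lie below.

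Cell cycle genes had lower values and glycolysis genes higher values. Of 23 cell cycle genes 10 lay below vehicle and none above, with a median of -0.28; without vehicle replicate 2, 14 lay below and the median was -0.24. Ccnb2, a mitotic cyclin, was at 43.8, 39.2 and 36.7 FPKM against 51.9, 60.5 and 57.6 FPKM, and Plk1, a mitotic kinase, at 45.1, 33.2 and 32.9 FPKM against 53.2, 76.7 and 50 FPKM. The proliferation marker Mki67 overlapped, with treated replicate 2 (38 FPKM) above vehicle replicate 1 (37.9 FPKM). Of 19 hypoxia and glycolysis genes 6 lay above vehicle (Hk2, Pfkp, Aldoa, Pgk1, Pkm and Ldha), with a median of 0.72, or 0.21 without vehicle replicate 2. Hk2, hexokinase 2, was at 18.9, 22.8 and 21.8 FPKM against 16.4, 4.94 and 13.9 FPKM. Slc2a1, the glucose transporter, overlapped at 85, 109 and 106 FPKM against 89, 18.6 and 55.9 FPKM, and its difference of 1.12 was 0.49 without that tumour.

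Of 13 mitochondrial transcripts 7 lay below vehicle, with a median of -0.69, or -0.32 without vehicle replicate 2, which had the highest value for each of the 3 named here. mt-Nd5, a subunit of complex I, was at 768, 574 and 778 FPKM against 1004, 1911 and 847 FPKM. mt-Nd6 was at 521, 368 and 506 FPKM against 802, 1947 and 567 FPKM. mt-Nd2 was at 1254, 952 and 1187 FPKM against 1717, 3801 and 1334 FPKM. Among heat shock genes 3 of 12 lay above vehicle. Hspa1b, the inducible chaperone HSP70, was at 16.4, 19.4 and 22.8 FPKM against 13.3, 4.27 and 8.49 FPKM, and Dnajb1, its partner, at 54.9, 58.3 and 63.8 FPKM against 47.7, 38 and 41.4 FPKM. Hmox1, heme oxygenase 1, was at 164, 154 and 196 FPKM against 91.6, 38.9 and 76 FPKM. Atf3, a stress-induced transcription factor, was at 10.4, 10.8 and 12.1 FPKM against 9.23, 1.68 and 7.82 FPKM, so that most of its difference of 1.05 (0.36 without vehicle replicate 2) came from 1 tumour.

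Vessel genes and 17 of 20 fibroblast and matrix genes had lower mean values with treatment in T2106. Of 16 endothelial genes 9 lay below vehicle and none above, with a median of -0.59, or -0.35 without vehicle replicate 2. Emcn, a sialomucin of capillaries and veins, was at 5.84, 5.05 and 5.42 FPKM against 6.51, 14.8 and 7.99 FPKM, and Robo4, an endothelial guidance receptor, at 2.63, 2.41 and 2.49 FPKM against 2.77, 5.35 and 4.43 FPKM. Pecam1, the general endothelial marker, overlapped at 18.5 to 20.3 against 18.1 to 29.2 FPKM. Gpihbp1, the capillary anchor of lipoprotein lipase, was at 9.26, 8.15 and 9.45 FPKM against 13.3, 28.2 and 17.6 FPKM. Of the 20 fibroblast and matrix genes 6 lay below vehicle and 2 above, with a median of -0.46. Without vehicle replicate 2, 6 lay below and 3 above, and the median was -0.15. Col1a1, a collagen chain, was at 36, 25.6 and 24.5 FPKM against 41.7, 97.5 and 36.4 FPKM, while Dcn, the proteoglycan decorin, lay above vehicle at 126, 218 and 125 FPKM against 76.8, 111 and 113 FPKM. Plin1, which coats fat droplets, was at 0.0529, 0.0361 and 0.0619 FPKM against 0.1, 2.63 and 0.241 FPKM.

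The gene with the smallest p was Inmt, an enzyme that methylates indoles (ENSMUSG00000003477; chromosome 6, 55170626 to 55175043). It was at 0.76, 0.73 and 0.691 FPKM with treatment and at 1.95, 3.19 and 2.81 FPKM with vehicle. The groups lay apart by -1.34 ± 0.23, with a 95% interval of -1.82 to -0.86, and by -1.21 without vehicle replicate 2. Other protein-coding genes apart from vehicle by at least 1 on the log2 scale with low treated values were Nrgn, neurogranin, at 1.46, 0.927 and 0.811 FPKM against 2.36, 3.64 and 2.63 FPKM, and Gatm, an enzyme of creatine synthesis, at 23.5, 32.6 and 11.7 FPKM against 48.5, 39.2 and 57.3 FPKM. Apod, a lipid carrier, was at 12.3, 11.4 and 9.04 FPKM against 17, 37.4 and 19.5 FPKM. Agt, angiotensinogen, was at 2.02, 1.91 and 1.41 FPKM against 2.76, 10.9 and 5.2 FPKM, and Stra6, a vitamin A transporter, at 1.01, 1.13 and 0.636 FPKM against 1.83, 4.17 and 1.92 FPKM. In Inmt, Nrgn, Apod, Agt, Stra6 and Gpihbp1 vehicle replicate 2, the fat-rich tumour, was the highest of the 6. In Gatm it was the lowest of the vehicle tumours. Upward, Prl2c2, a proliferin, was at 4.1, 3.73 and 4.11 FPKM against 1.27, 0.263 and 0.852 FPKM.

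Some features outside protein-coding genes also lay apart. Rpl35a-ps3, a processed pseudogene of a ribosomal protein (ENSMUSG00000067575; chromosome 17, 29136972 to 29137304), was at 0.578, 0.0237 and 0.162 FPKM with treatment and at 1027, 0.747 and 803 FPKM with vehicle. It was thus near 0 in 4 tumours and high in 2, which makes the difference of -7.13 a description of 2 vehicle tumours. Reads of a processed pseudogene can come from its parent gene, so its level is uncertain. The antisense gene Atad3aos was at 0.12, 0.0112 and 0.257 FPKM against 0.485, 1.13 and 0.746 FPKM; no label or note used here says whether counting used strand. The pseudogene Gm43712, chosen after its values were seen, had the second smallest p, at 0.307, 0.577 and 0.204 FPKM against 1.68, 2.46 and 1.53 FPKM.

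The same antibody pair at the same doses was given in the experiment T2215, in 3 tumours against 3 vehicle tumours, none of them shared with T2106. The authors normalised the 2 tables separately, so values are set side by side and the difference between experiments was not tested. In T2215 2 of 14914 genes were called higher (0.0134%) and 0 lower; at an unadjusted p under 0.05 there were 655 genes (4.39%), 101 higher (0.677%) and 554 lower (3.71%). The 3 treated tumours lay above vehicle in 832 genes (5.58%) and below in 1638 (11%). One of the 2 called genes, 2610021A01Rik, was tested in both: it was at 22.7, 18 and 24.9 FPKM against 7.63, 6.69 and 6.14 FPKM in T2215, and at 6.91, 7.91 and 7.91 FPKM against 8, 7.89 and 7.83 FPKM in T2106. In T2215 the adipocyte genes summed to 799, 138 and 159 FPKM with vehicle and to 134, 153 and 763 FPKM with treatment, so that 1 fat-rich tumour stood in each group; treated replicate 3 also held 263 FPKM of muscle genes. With the mean log2 value of the fat list as a covariate, 2 genes were called in T2215 and 1087 had an unadjusted p under 0.05; the part of the muscle genes was not tested.

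T cell genes were low with treatment in both experiments. The T cell identity list had a median of -1.02 in T2215, with 11 of 21 genes below vehicle and none above. Cd3e was at 0.505, 0.314 and 1.38 FPKM with treatment and at 5.82, 1.7 and 4.02 FPKM with vehicle in T2215, a difference of -1.78 ± 0.75 beside -1.81 in T2106. Cd8a was at 0.337, 0.205 and 1.29 FPKM against 8.29, 1.95 and 5.84 FPKM, -2.34 beside -1.86. Cx3cr1 was at 2.91, 1.08 and 0.945 FPKM against 6.22, 3.74 and 8.33 FPKM, -1.67 beside -2.46. In all 3 the groups lay apart in both experiments. Siglece, Nrgn and Gatm also lay apart in the same direction, by -1.74, -1.69 and -1.22 in T2215. Inmt was at 0.688, 0.322 and 0.179 FPKM against 3.65, 0.903 and 1.1 FPKM, -1.27 beside -1.34. Among neutrophil genes the median was 0.57 in T2215 beside 0.56 in T2106, but 0 of 15 lay above vehicle in T2215 and 8 of 17 in T2106. S100a8 overlapped in T2215 at 13.9, 48.3 and 46.3 FPKM against 4, 27.4 and 10.8 FPKM. Il1rn lay above vehicle in both, at 43.7 to 49.8 against 12.2 to 21.6 FPKM in T2215. Nos2, which lay above vehicle in T2106, overlapped in T2215 at 3.85, 4.47 and 6.86 FPKM against 3.11, 10.7 and 7.13 FPKM. Its difference was -0.32 there, beside 2.22 in T2106.

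Several granzyme and interferon gamma genes lay above vehicle in T2106 and below it in T2215. Of the 20 CD8 and effector genes, 9 lay above and 5 below in T2106, and 0 above and 16 below in T2215; Cd8a, Cd8b1 and Tbx21 lay below in both. Gzmb was at 9.53, 7.63 and 15.2 FPKM with treatment in T2215 and at 56.6, 31.8 and 51.8 FPKM with vehicle, -2.08 ± 1.07 beside 1.16 ± 0.38 in T2106. The mean Gzmb level with vehicle was 46.7 FPKM in the T2215 table and 50.1 FPKM in the T2106 table, and with treatment 10.8 and 109 FPKM. Gzmc was at 12.4, 12.5 and 14.8 FPKM against 20.7, 34.8 and 66.4 FPKM, and Prf1 at 2.63, 3.1 and 4 FPKM against 15.6, 11.9 and 21.6 FPKM. Of the interferon gamma list, 7 of 25 genes lay above vehicle in T2106 and 19 of 25 below in T2215, with a median of -1.92 beside 0.53; Irf1 was at 33.8, 23.8 and 73.2 FPKM against 143, 98.6 and 105 FPKM. The MHC class I and NK cell medians were -1.03 and -1.41 in T2215, beside 0.19 and 0.03. The endothelial list went the other way, with a median of 0.14 in T2215 beside -0.59 in T2106. In T2215 5 of its 16 genes lay above vehicle and none below. Cd274 was at 5.97, 3.99 and 15.7 FPKM against 19.6, 22.3 and 19 FPKM, and Klrg1 at 0.711, 0.651 and 0.472 FPKM against 2.17, 2.29 and 3.39 FPKM.

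Over all 14646 genes tested in both, 62.1% had a difference of the same sign, and the log2 differences correlated at r = 0.0898 across genes, which are not independent replicates. Groups lay apart in both experiments below vehicle in 481 genes and above in 150, above in T2106 and below in T2215 in 99, and the reverse in 42. Of 761 genes at an unadjusted p under 0.05 in T2106 and 645 in T2215, 65 shared the direction, 8.54% of the first and 10.1% of the second, 53 of them lower and 12 higher. Another 19 had opposite directions, 17 of them higher in T2106 and lower in T2215.

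**Figure D5:**
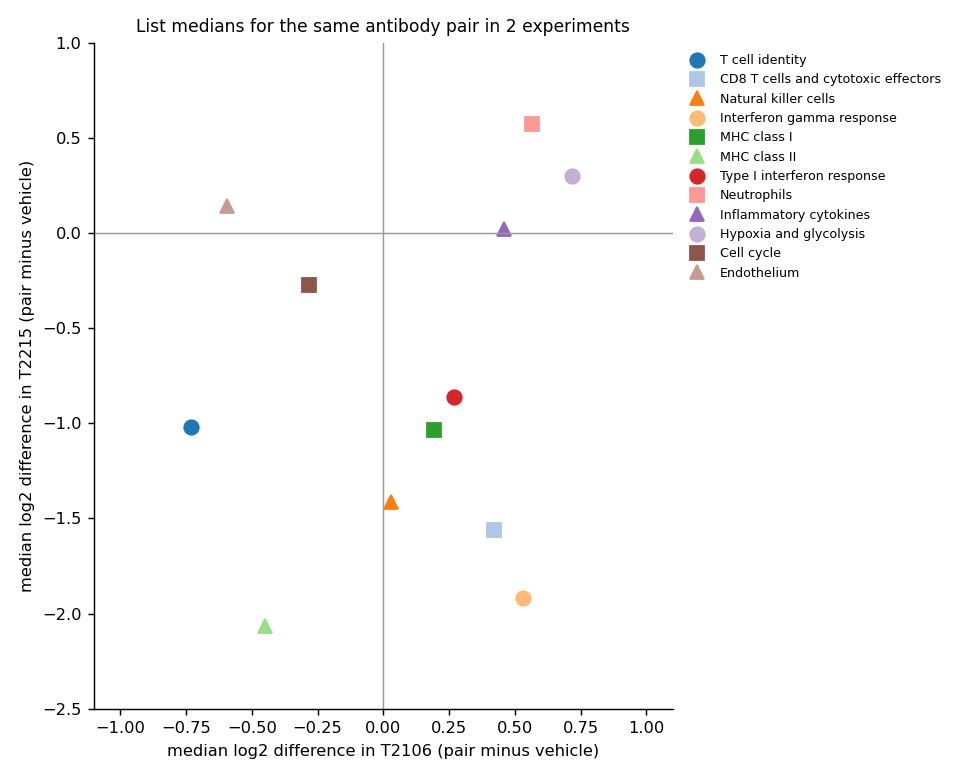
Median log2 difference (pair minus vehicle) of 12 gene lists in T2106 (horizontal) and T2215 (vertical); each point is 1 list. The T cell, MHC class II and cell cycle lists lie below 0 in both, the neutrophil and hypoxia lists above 0 in both, and the cytotoxic, interferon, MHC class I and NK cell lists above 0 in T2106 and below 0 in T2215. The endothelial list lies below 0 in T2106 and above 0 in T2215.

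The treated tumours were also set against the 3 tumours of T2106 given the other pair of PD-1 and TIGIT antibodies, serplulimab and HLX53, each at 10 mg/kg. At an unadjusted p under 0.05, 54.7% of genes differed, 25% higher and 29.7% lower, and the groups lay apart upward in 34.3% and downward in 34.4%. Of 15070 genes, 2526 (16.8%) were higher and 3888 (25.8%) lower with pembrolizumab and tiragolumab at an adjusted p under 0.05. When each library was shifted to a common median, 3492 were higher and 3570 lower. Single tumours moved the 6414 calls to 4175, 3075 and 3066 without pembrolizumab and tiragolumab replicates 1, 2 and 3, and to 1632 and 2357 without serplulimab and HLX53 replicates 1 and 3. Tumours of the other pair held 2189.6 to 2456 FPKM of adipocyte genes, against 89.1 to 100.4 FPKM, and 186.5 to 222.5 FPKM of mammary genes, against 9.31 to 16.6 FPKM. With the adipocyte score as a covariate 0 genes were called and 609 had an unadjusted p under 0.05, so the antibody pair and the fat content of the tumours cannot be told apart. Among T cell identity genes 20 of 21 were called lower than with the other pair, with a median of -2. Other lists did the same: 18 of 20 fibroblast and matrix, 15 of 16 endothelial and 12 of 12 adipocyte genes were called lower. Called higher were 9 of 23 cell cycle and 7 of 19 hypoxia and glycolysis genes. Cd3e had 0.736 ± 0.23 FPKM against 8.29 ± 3.26 (SD, n = 3), -2.77 with an adjusted p of 0.0116 in limma. The granzymes did not pass this test: Gzmb had 109 ± 16.7 against 123 ± 47.6 FPKM and Gzmc 190.0 ± 43.3 against 188 ± 95.6 FPKM, with adjusted p of 0.82 and 0.851. Klrg1 was likewise at 7.92 ± 0.613 against 8.62 ± 3.79 FPKM. S100a8 was lower with pembrolizumab and tiragolumab, at 37.3 ± 2.55 against 252 ± 132 FPKM, -2.57 with an adjusted p of 0.0252, although it lay above vehicle.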

How the data were processed

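The authors deposited 1 table per experiment of log2 FPKM values of mouse genes, that is, fragments scaled by transcript length and library depth. Tools named, per the submitters' processing notes, are STAR, Bowtie, FastQC and Trimmomatic, beside the builds mm10, hg19 and GRCh37; no source used here names the program that made the values. Libraries were sequenced as paired reads of 150 bases, per the labels.

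Values were returned to FPKM, and genes at 0.5 FPKM or more in at least 3 libraries of an experiment were kept. log2(FPKM + 0.5) was fitted with limma 3.58.1 in R 4.3.3, group means over all 18 (T2106) or 27 (T2215) libraries, with a variance trend and Benjamini-Hochberg adjustment; the threshold was 0.05 and tests were two-sided. The fit was checked on simulated data. Gene positions come from GENCODE M21 (GRCm38), upstream sequences and starts from RefSeq (GRCm38.p6). The 33 lists hold 465 genes, of which 435 were tested; 5 symbols were matched through gene identifiers.

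Named genes were the 12 per direction of smallest unadjusted p among genes apart by at least 1 (no gene passed the threshold; gene models and receptor segments left out), 4 of smallest p per list, and a panel of 20. Other list members and relatives were named after their values were seen. Some genes the rule names are not reported here. The samples, lists and genes were chosen with earlier results of these data known.

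Same-numbered tumours did not deviate together: the correlations of their deviations from the group means were -0.16, -0.00807 and -0.198, so the numbers were not used as pairs. The alternatives were other pseudocounts, filters and centring, the 6 libraries alone, a replicate block, library weights, an adipocyte score (the mean log2 value of the fat list) as a covariate, and each tumour left out.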

Additional observations from a re-analysis of the deposited data

Results flagged for a closer look

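For 18 of the 161 genes chosen by the rule, all treated tumours lay on one side of all vehicle tumours in T2106 and on the other side in T2215. Over all 14646 genes tested in both, 99 lay above in T2106 and below in T2215, and 42 the reverse. Many of the 161 were chosen for a small p or groups apart in T2106, so their share is not comparable with that over all genes. The difference between the experiments was not tested. In T2106 the log2 difference was positive and in T2215 negative for the granule genes Gzmc (2.18), Gzmf (2.95), Gzmd (2.87), Gzme (2.73), Gzmb (1.16) and Prf1 (1.4). The same order held for the lymphocyte genes Klrg1 (1.62), Sh2d1b2 (1.86) and Cd244 (0.45). It held too for Cd274 (1.24), Igtp (0.83), Irgm1 (0.698), Irf1 (0.62), Gbp5 (0.79) and Bst2 (0.496), genes induced by interferon. The sign was negative in T2106 and positive in T2215 for the pseudogene Rpl35a-ps3 (-7.13) and the endothelial genes Robo4 (-0.597) and Emcn (-0.71). Rpl35a-ps3 was high in 2 vehicle tumours of T2106 (1027 and 803 FPKM), and in T2215 in the treated tumours, at 1112, 637 and 40.8 FPKM against 0.0213 to 3.35 FPKM.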

How the results depend on the processing

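Against vehicle, 0 genes were called in 13 of the 16 alternatives tried, among them the replicate block (0 genes, 694 at an unadjusted p under 0.05) and each tumour left out (0 to 0, with 288 to 948 at an unadjusted p under 0.05, the 288 without vehicle replicate 2). The exceptions were no filter on low values (3 genes), library weights over all 18 libraries (822, with a library of another group given a weight of 287) and weights within the 6 libraries (51). The weights within the 6 libraries, and the counts of genes apart without vehicle replicate 2, were chosen after seeing the data.

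Against serplulimab and HLX53, the 6414 calls became 3953 with no filter, 10706 with library weights, 12403 with weights within the 6 libraries, 0 with the adipocyte score and 1632 to 7301 with each tumour left out (1632 without replicate 1 of that pair); the replicate block gave 5549. In T2215 the 2 calls became 5 with no filter, 1130 with library weights, 1362 with weights within the 6 libraries and 1 to 2 with each tumour left out; the block gave 2.

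No named gene lost a call, since none had one. With the adipocyte score, differences that turned positive were H2-Aa 0.855, Gzmk 0.35, Pecam1 0.341, Adgre1 0.239, Col1a1 0.222, Plin1 0.215, Cd226 0.214, Btla 0.103, Pvrl2 0.0744 and Fasl 0.0151. With library weights over 18 and over 6 libraries, Trbc1 turned to -0.232 and -0.214 and Icos to -0.178 and -0.185. With each tumour left out, both signs occurred for Krt18 (-0.0384 to 0.326), Tigit (-0.173 to 0.0192), H2-Aa (-0.383 to 0.212), Pecam1 (-0.323 to 0.0151), Trbc1 (-0.175 to 0.432), Icos (-0.189 to 0.214) and Epcam (-0.189 to 0.393). Of 33 list medians, 15 kept their sign under every setting tried. The depth behind the FPKM values is unknown, so genes under 1 FPKM carry a counting error that could not be given.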
